A study of Mus musculus with 412 samples.

Results

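Mas-related G protein-coupled receptors and lysophosphatidic acid (LPA) receptors were examined in single sensory neurons of the mouse colon. The group held 10 of the 45513 genes of the deposited table, chosen by symbol and matched by Ensembl identifier. The Mas-related members were Mrgprd, Mrgpra3, Mrgprx1, Mrgprb4, Mrgprb5 and Mrgpre, and the LPA receptor members were Lpar1, Lpar3, Lpar5 and Lpar6. Neurons came from healthy C57BL/6J mice whose colon wall had been injected with the retrograde tracer Fast Blue, so that labelled cells in the dorsal root ganglia (DRG) were those that project to the colon. Ganglia were taken 3 to 10 days later. Those of levels T10-L1 (thoracolumbar, TL) and those of levels L5-S2 (lumbosacral, LS) went into separate cultures, and single labelled neurons were picked by hand and sequenced by Smart-seq2, a full-length method for polyadenylated RNA. The labels list 203 TL neurons, 196 LS neurons and 13 bath controls, of which 167 TL and 158 LS neurons have a column in the table. The other 74 neurons and all controls were not used here. No mouse was knocked out or treated beyond the tracing, and neither age nor sex is given in the sources used here. Because the mouse of each neuron is not named, TL and LS were each 1 sample, no test between them was run, and all intervals cover counting error only.

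Mas-related receptors form a family that is large in rodents and is expressed mainly by small sensory neurons. Several of them are known from the skin, where they respond to itch-evoking compounds, and Mrgprd, a receptor for beta-alanine, marks the non-peptidergic class of nociceptor. LPA is a signalling lipid made outside the cell mainly by autotaxin, and its receptors couple to several G protein families and are found in both neurons and glia.

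Expression is given as TPM (transcripts per 1000000), the deposited value taken off its log2 scale and rescaled to a sum of 1000000 per neuron. A neuron was counted as expressing a gene at 10 TPM or more. The reads behind the values were recovered, and they ranged from 508950 to 10771701 per TL neuron (median 2778815) and from 426223 to 12424022 per LS neuron (median 3334658). In the median neuron 10 TPM stood for 12.6 reads on Mrgprb5, the shortest member, and for 65.7 reads on Lpar6, the longest, but in the shallowest neuron it stood for only 1.71 and 8.90 reads. The neuronal genes Snap25, Tubb3, Uchl1 and Prph were expressed in all 325 cells, whereas the summed level of 15 satellite glia and Schwann cell genes had a median of 3840 TPM in TL and 2085 TPM in LS neurons and reached 101622 TPM in 1 TL neuron.

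All 10 members are protein-coding genes. In GRCm38 the Mas-related members lie on chromosome 7, Mrgprd (ENSMUSG00000051207) from 145314835 to 145324086, Mrgpra3 (ENSMUSG00000078698) from 47588950 to 47601372, Mrgprx1 (ENSMUSG00000070552) from 48020971 to 48027597, Mrgprb5 (ENSMUSG00000070551) from 48167983 to 48169019, Mrgprb4 (ENSMUSG00000070550) from 48198070 to 48199288 and Mrgpre (ENSMUSG00000048965) from 143778363 to 143784500. Lpar3 (ENSMUSG00000036832) lies on chromosome 3 from 146220963 to 146286186, Lpar1 (ENSMUSG00000038668) on chromosome 4 from 58435255 to 58553898, Lpar5 (ENSMUSG00000067714) on chromosome 6 from 125067920 to 125082472 and Lpar6 (ENSMUSG00000033446) on chromosome 14 from 73237895 to 73243294. Lpar6 lies within Rb1, which runs on the opposite strand and has annotated exons there. The libraries did not mark strand, so reads of these genes cannot be told apart, and 5.13% of the 75-base stretches of the Lpar6 transcript also occur in transcripts of other genes. Of the other members, 0.164% of such stretches in Mrgpra3 and 0.723% in Mrgprx1 occur in another gene and none in the remaining 7.

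Most neurons with Mrgprd also expressed Lpar3 and Lpar5, and for that reason the 250 bases before their RefSeq start sites are shown (GRCm38.p6, plus strand). They are chr7:145314585-145314834 for Mrgprd, chr3:146220711-146220960 for Lpar3 and chr6:125067670-125067919 for Lpar5. Capitals mark TGTGGT or its reverse complement ACCACA, the core bound by RUNX factors, of which Runx1 is known to be needed for Mrgprd expression in non-peptidergic neurons.
Mrgprd: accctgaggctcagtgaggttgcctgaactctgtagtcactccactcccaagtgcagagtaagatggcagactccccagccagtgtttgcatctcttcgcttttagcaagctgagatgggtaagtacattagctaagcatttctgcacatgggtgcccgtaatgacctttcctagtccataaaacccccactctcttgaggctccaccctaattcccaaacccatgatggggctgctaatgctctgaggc
Lpar3: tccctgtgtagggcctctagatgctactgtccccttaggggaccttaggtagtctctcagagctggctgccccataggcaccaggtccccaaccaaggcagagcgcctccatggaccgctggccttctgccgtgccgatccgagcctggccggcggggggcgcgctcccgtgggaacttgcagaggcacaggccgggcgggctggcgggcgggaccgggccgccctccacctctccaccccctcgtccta
Lpar5: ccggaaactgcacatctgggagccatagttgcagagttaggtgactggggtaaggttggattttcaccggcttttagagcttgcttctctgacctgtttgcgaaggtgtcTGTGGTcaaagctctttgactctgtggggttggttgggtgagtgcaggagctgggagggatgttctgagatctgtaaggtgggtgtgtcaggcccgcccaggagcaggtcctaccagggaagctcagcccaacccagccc
The core occurred once on the plus strand of the Lpar5 window, starting 140 bases before the start site, and in neither of the other windows. By comparison, 14.0% of all 32851 such windows in the RefSeq set hold it. GC content was 51.2% for Mrgprd, 69.6% for Lpar3 and 56.0% for Lpar5. A second Lpar5 start site had 2 copies, and of the 9 members with a window (Mrgpra3 had none in the set) only Lpar5 and Lpar1 held the core.

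The members ranged from receptors found in most colonic neurons to receptors found in none. Mrgpre was expressed in 274 of 325 neurons and Lpar1 in 230, followed by Mrgprx1 in 85, Lpar3 in 39, Mrgprd and Mrgprb5 in 17 each, Lpar5 in 15, Mrgpra3 in 5 and Lpar6 in 4. Mrgprb4 did not reach 10 TPM in any of the 325 neurons, which allows a share of up to 0.923% (3 neurons of the total, the limit used here for counts of 0, while the exact 95% interval reaches 1.13%), and its highest value was 2.90 TPM. Among neighbours in this order, the counts for Lpar5, Mrgprb5 and Mrgprd had overlapping intervals, as did those for Lpar5 and Mrgpra3, for Mrgpra3 and Lpar6, and for Lpar6 and Mrgprb4. At least 1 member was expressed in all but 16 neurons, and the commonest number was 2, found in 135 neurons.

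**Figure D1:**
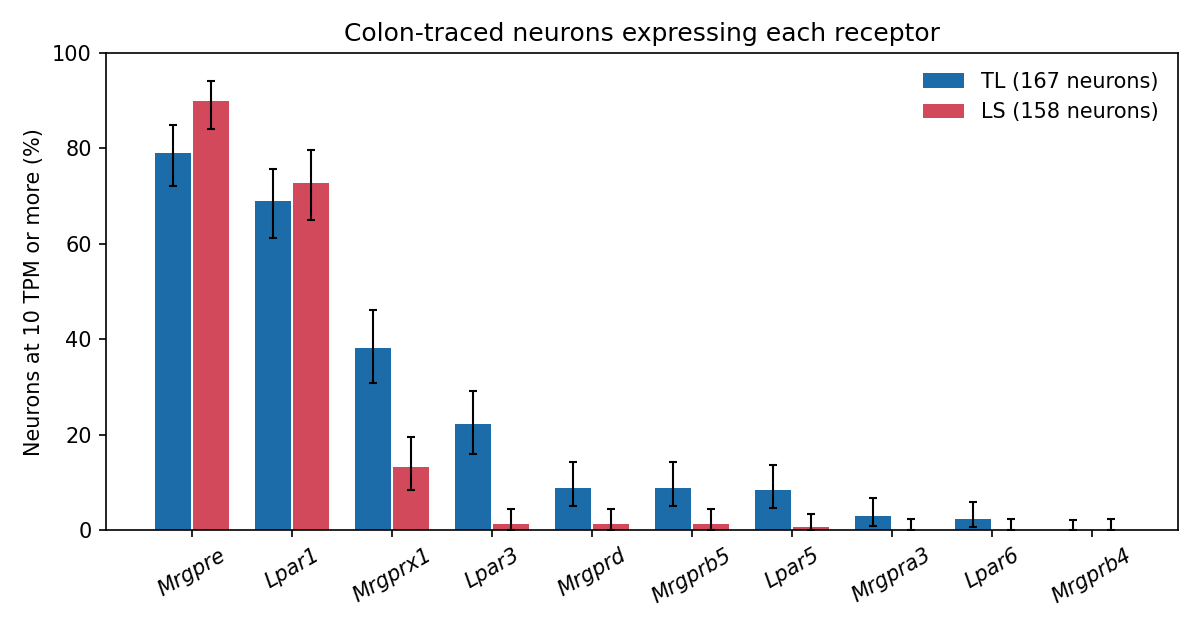
Percentage of TL (167, blue) and LS (158, red) neurons at 10 TPM or more for each receptor, with exact 95% intervals for counting error. Mrgprx1 (38.3% against 13.3%) and Lpar3 (22.2% against 1.27%) show the widest gaps between the segments, and Mrgpre and Lpar1 are common in both.

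The first comparison asked which receptors differed in frequency between the spinal pathways to the colon. Mrgprx1, Lpar3 and Mrgprd were each expressed in a larger share of TL neurons, with at least a 2-fold ratio of shares and the same direction in each of the 5 plates that held both segments. The Mrgprd call rested on 1 plate 4 neuron at 11 TPM. It was lost at a limit of 12 TPM, chosen after seeing the data, where plate 4 held 1 of 37 neurons of each segment, and without the 81 neurons highest in glial genes. At 50 TPM the calls of both Mrgprd and Lpar3 were lost. The receptors that met the rule were 3 of the 7 members that reached 10 TPM in at least 10 neurons, and no member met the rule in the direction of LS. Over all 13440 genes tested, 411 (3.06%) met the rule for TL and 489 (3.64%) met it for LS. The median difference in share, TL minus LS, was 7.72 percentage points for the 7 members and -1.44 percentage points for all tested genes. It was 12.7 percentage points for the 15 glial genes, which lay further toward TL than the members, and the part of glial RNA in the members' differences was not tested.

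Lpar3, an LPA receptor, was expressed in 37 TL neurons (22.2%, 95% CI 16.1% to 29.2%) and 2 LS neurons (1.27%, 95% CI 0.154% to 4.50%). The difference was 20.9 percentage points (95% CI 14.4 to 27.8, Newcombe's method), a 17.5-fold ratio. In plates 2 to 6 it was found in 3 of 27, 5 of 22, 11 of 37, 7 of 38 and 11 of 38 TL neurons and in 0 of 21, 1 of 25, 1 of 37, 0 of 37 and 0 of 38 LS neurons. Over these 5 plates the lowest TL share was 11.1% and the highest LS share was 4.00%. How many of all tested genes were separated in this way was not counted.

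Mrgprx1, the mouse receptor for the peptide BAM8-22, was expressed in 64 TL neurons (38.3%, 95% CI 30.9% to 46.2%) and 21 LS neurons (13.3%, 95% CI 8.42% to 19.6%), a difference of 25.0 percentage points (95% CI 15.7 to 33.8). Its level in expressing TL neurons ran from 10.4 to 143 TPM with a median of 36.1, and in expressing LS neurons from 10.1 to 61.2 TPM with a median of 21.3. The plates were unequal for this gene. Plate 3 had 8 of 22 TL and 9 of 25 LS neurons (36.4% against 36.0%), whereas plate 2 had 13 of 27 and 1 of 21 and plate 4 had 13 of 37 and 1 of 37.

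Mrgprd was expressed in 15 TL neurons (8.98%, 95% CI 5.11% to 14.4%) and 2 LS neurons (1.27%), a difference of 7.72 percentage points (95% CI 2.98 to 13.1). In plate 4 it was found in 2 of 37 TL and 1 of 37 LS neurons, and its mean was 12.8 TPM in TL and 32.2 TPM in LS, the other way round from the shares. Mrgprb5, a Mas-related receptor with no settled ligand, was found in the same numbers of 15 and 2 neurons. Lpar5 was expressed in 14 TL neurons (8.38%, 95% CI 4.66% to 13.7%) and in 1 LS neuron (0.633%, 95% CI 0.0160% to 3.48%). Neither Mrgprb5 nor Lpar5 met the rule over plates, since in plate 4 Mrgprb5 was found in more LS than TL neurons and Lpar5 in 1 of 37 of each. Without plate 4, both met it.

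Mrgpra3, a chloroquine receptor of itch neurons, was expressed in 5 TL neurons and in 0 of 158 LS neurons, which allows a share of up to 1.90% in LS by the same limit (exact 95% interval up to 2.31%). Its mean of 23.7 TPM over TL neurons came largely from 1 neuron at 3238 TPM, and was 4.30 TPM without it. Lpar6 was expressed in 4 TL and 0 LS neurons at 10.5 to 221 TPM. Both were expressed in too few neurons for the rule.

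Mrgpre and Lpar1 were common in both segments, and neither met the rule. Mrgpre, an orphan receptor, was expressed in 132 TL neurons (79.0%, 95% CI 72.1% to 84.9%) and 142 LS neurons (89.9%, 95% CI 84.1% to 94.1%), a difference of -10.8 percentage points (95% CI -18.6 to -2.93). The 51 neurons without Mrgpre had a median of 8761 genes detected, against 13961 in the neurons with it, and the part of this in the difference was not tested. Lpar1 was expressed in 115 neurons of each segment (68.9% of TL and 72.8% of LS), a difference of -3.92 percentage points (95% CI -13.7 to 5.96), whose sign turned under other settings.

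**Figure D2:**
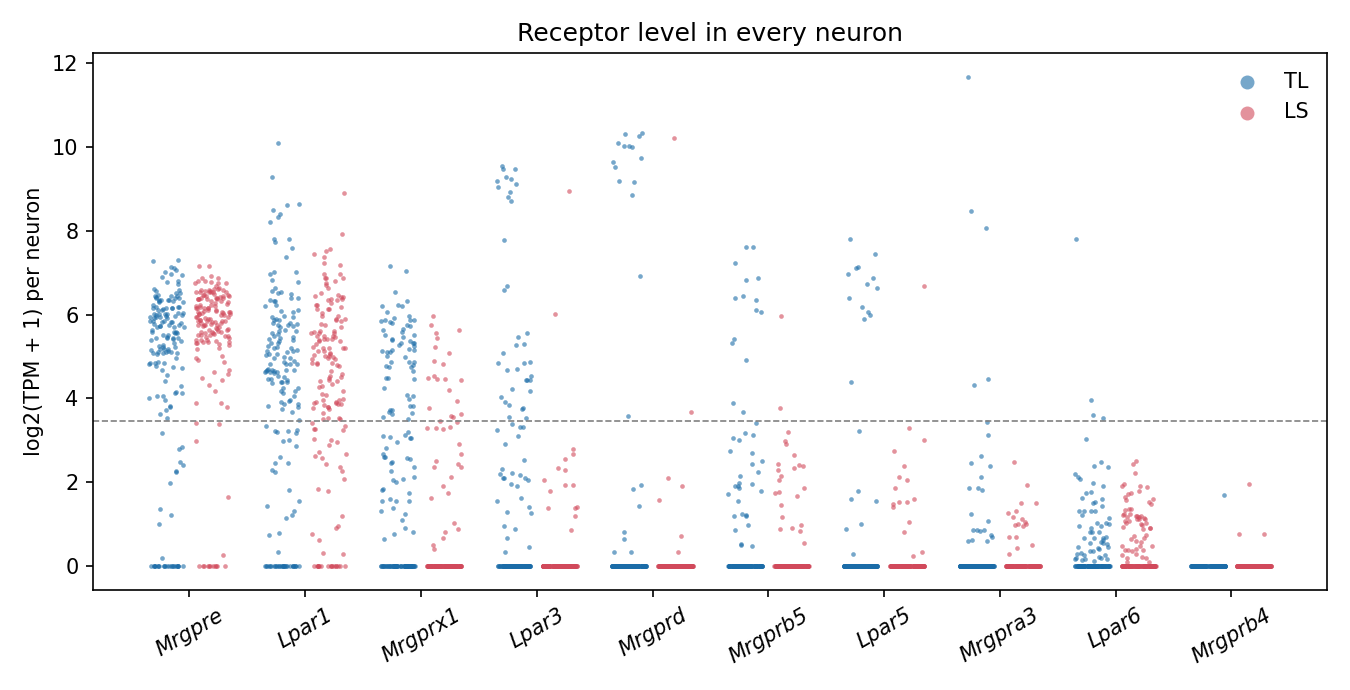
Level of each receptor in each of the 325 neurons as log2(TPM + 1), TL in blue and LS in red, with a dashed line at 10 TPM. Mrgprd is split into 15 neurons at 119 TPM or more and a floor near 0, whereas Lpar1 and Mrgprx1 run continuously across the line.

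Mrgprd was either abundant or nearly absent. Of the 17 expressing neurons, 15 lay between 119 and 1285 TPM and 2 lay at 11 and 11.9 TPM, and the highest neuron below the limit was at 3.27 TPM. Recovered reads in expressing neurons had a median of 2962 for Mrgprd, against 97 for Mrgprb5, 175 for Lpar5 and 49 for Mrgprx1. The pair at 11 and 11.9 TPM differed from the 15 others in more than Mrgprd. They had 6563 and 7449 genes detected, summed glial levels of 101622 and 44696 TPM (1825 to 7934 TPM in the 15) and Lpar1 at 360 and 240 TPM, and neither expressed Lpar5, Mrgprb5 or Mrgpre.

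Mrgprd neurons carried a set of receptors that was less frequent in the other neurons. Lpar3 was expressed in 16 of 17 Mrgprd neurons (94.1%, 95% CI 71.3% to 99.9%) and in 23 of the other 308 (7.47%, 95% CI 4.79% to 11%). Within TL alone, Lpar3 was expressed in 15 of 15 Mrgprd neurons and in 22 of 152 others (14.5%, 95% CI 9.30% to 21.1%). Lpar5, reported to be a receptor for digested protein in the gut as well as for LPA, was expressed in 14 of 17 (82.4%, 95% CI 56.6% to 96.2%) and in 1 of 308 (0.325%, 95% CI 0.00822% to 1.80%). Mrgprb5 was expressed in 14 of 17 Mrgprd neurons and in 3 of 308 others (0.974%, 95% CI 0.201% to 2.82%). Mrgprd, Lpar3, Lpar5 and Mrgprb5 were all expressed together in 13 neurons, 12 of them TL and 1 LS.

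Levels are given next. In the 15 neurons with Mrgprd at 100 TPM or more, Lpar3 had a median of 528 TPM, Lpar5 of 102 TPM and Mrgprb5 of 68.0 TPM. Lpar3 outside Mrgprd neurons had a median of 22.1 TPM and a range of 10.6 to 102 TPM over 23 neurons. The ranges overlapped, since Lpar3 in the 15 neurons ran from 43.6 to 747 TPM. The neuron at 43.6 TPM had Mrgprb5 listed at 0, and the next, at 95.9 TPM, had Lpar5 at 2.03 TPM. Those 23 neurons expressed Lpar1 in 20, Mrgprx1 in 8 and Lpar5 in 0 cases, and 22 of them were TL. The single Mrgprd neuron of plate 4 from LS had the full set, with Mrgprd at 1189, Lpar3 at 493, Lpar5 at 102 and Mrgprb5 at 61.7 TPM.

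**Figure D3:**
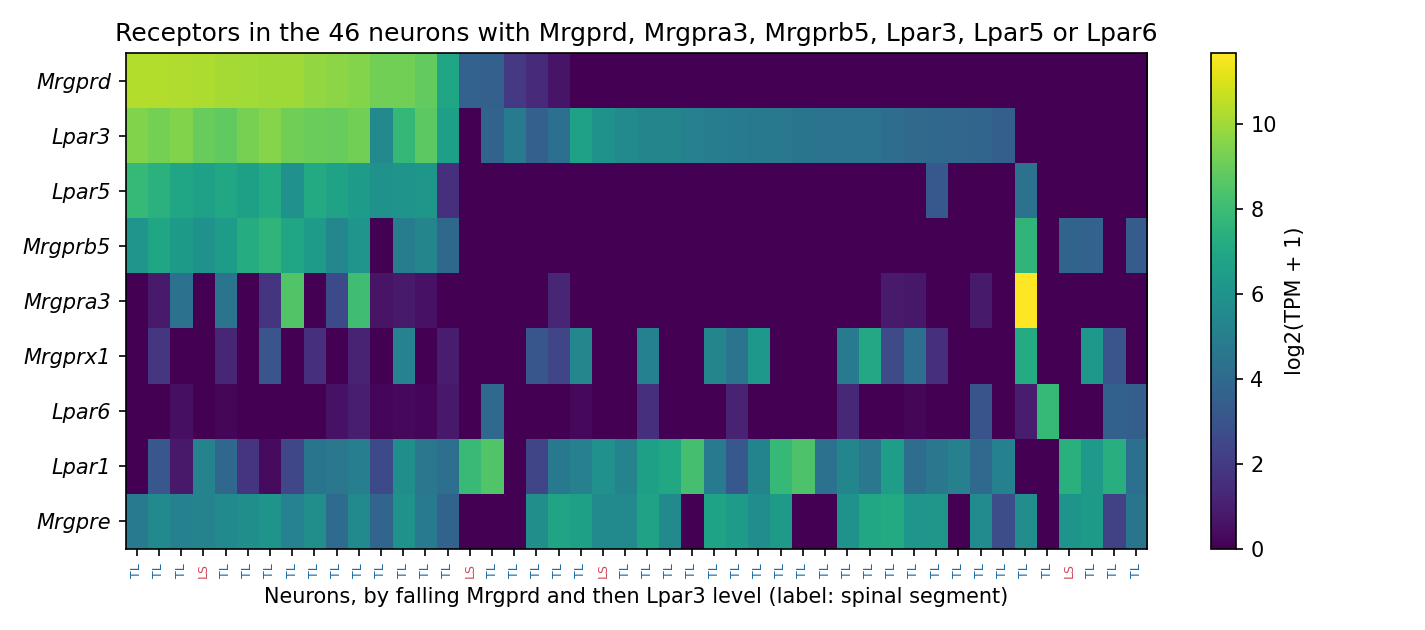
Heat map of log2(TPM + 1) for 9 receptors in the 46 neurons that expressed Mrgprd, Mrgpra3, Mrgprb5, Lpar3, Lpar5 or Lpar6, ordered by falling Mrgprd and then Lpar3, with the segment of each neuron under its column. The block on the left holds the Mrgprd neurons with high Lpar3 and with Lpar5 and Mrgprb5, and the Lpar3 neurons to its right lack Lpar5 at 10 TPM.

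Mrgpra3 overlapped with this set. Of the 5 Mrgpra3 neurons, 4 expressed Mrgprd, with Mrgpra3 at 19.1, 21.1, 267 and 355 TPM, and all 5 expressed Mrgprb5 and Lpar5. The fifth neuron, a TL cell of plate 6, had a different combination. It had Mrgpra3 at 3238 TPM, Mrgprx1 at 143, Mrgprb5 at 195 and Lpar5 at 20.1 TPM, with Mrgprd, Lpar1 and Lpar3 listed at 0. Mrgpra3 and Mrgprx1 are known to be expressed together in itch neurons of the skin. A combination like that of the fifth neuron was seen in no other of the 325 neurons.

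At 10 TPM few neurons expressed both Mrgprx1 and Mrgprd. Of the 85 Mrgprx1 neurons, 1 expressed Mrgprd (1.18%, 95% CI 0.0298% to 6.38%), against 16 of 240 neurons without Mrgprx1 (6.67%, 95% CI 3.86% to 10.6%), and these intervals overlap. Within TL, Mrgprx1 was expressed in 1 of 15 Mrgprd neurons (6.67%, 95% CI 0.169% to 31.9%). Among the other TL neurons it was expressed in 63 of 152 (41.4%, 95% CI 33.5% to 49.7%). In LS the counts were 0 of 2 and 21 of 156. At a limit of 1 TPM, Mrgprx1 was found in 10 of 23 Mrgprd neurons (43.5%) and in 133 of all 325 neurons, so the low overlap depended on the limit. Lpar1 was expressed in 69 of the 85 (81.2%, 95% CI 71.2% to 88.8%) and in 161 of the 240 (67.1%, 95% CI 60.7% to 73.0%). Mrgprx1, Lpar1 and Mrgpre were expressed together in 68 neurons, 51 of 167 TL and 17 of 158 LS.

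**Figure D4:**
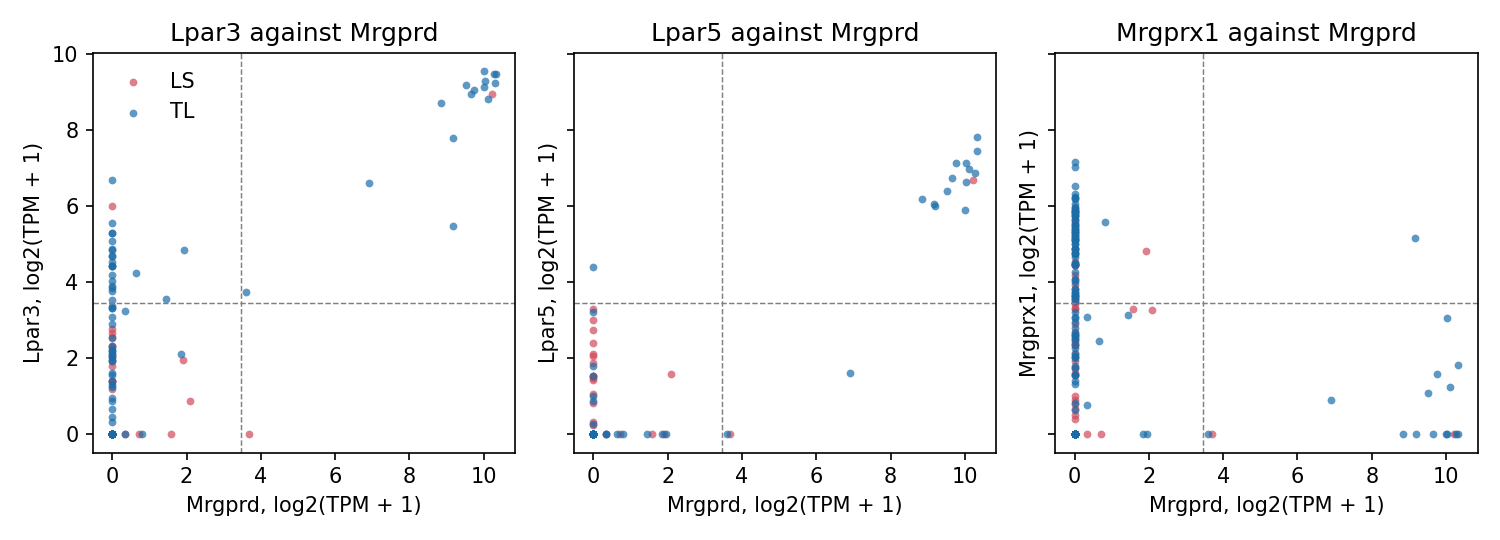
Lpar3, Lpar5 and Mrgprx1 against Mrgprd in each neuron on log2(TPM + 1) axes, with dashed lines at 10 TPM. Lpar3 and Lpar5 are high in the neurons at the right, where Mrgprd is high, and Mrgprx1 is above the line in 1 of the 17 Mrgprd neurons. At 1 TPM it is found in 10 of 23.

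Type genes of sensory neurons placed the receptors further. Gfra3, the artemin co-receptor of peptidergic neurons, was expressed in 183 neurons. Mrgprx1 was expressed in 76 of these 183 (41.5%, 95% CI 34.3% to 49.0%) and in 9 of the 142 others (6.34%). Within Gfra3 neurons Mrgprx1 was expressed in 58 of 100 TL (58.0%, 95% CI 47.7% to 67.8%) and 18 of 83 LS neurons (21.7%, 95% CI 13.4% to 32.1%). These intervals cover counting error only, and the Gfra3 neurons were not split by plate. Over all neurons of plate 3, Mrgprx1 was expressed in 36.4% of TL and 36.0% of LS neurons. Lpar1 was expressed in 88 of 100 TL and 74 of 83 LS neurons with Gfra3, and in 27 of 67 TL and 41 of 75 LS neurons without it. Mrgprd was expressed in 3 of the 183 neurons with Gfra3.

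**Figure D5:**
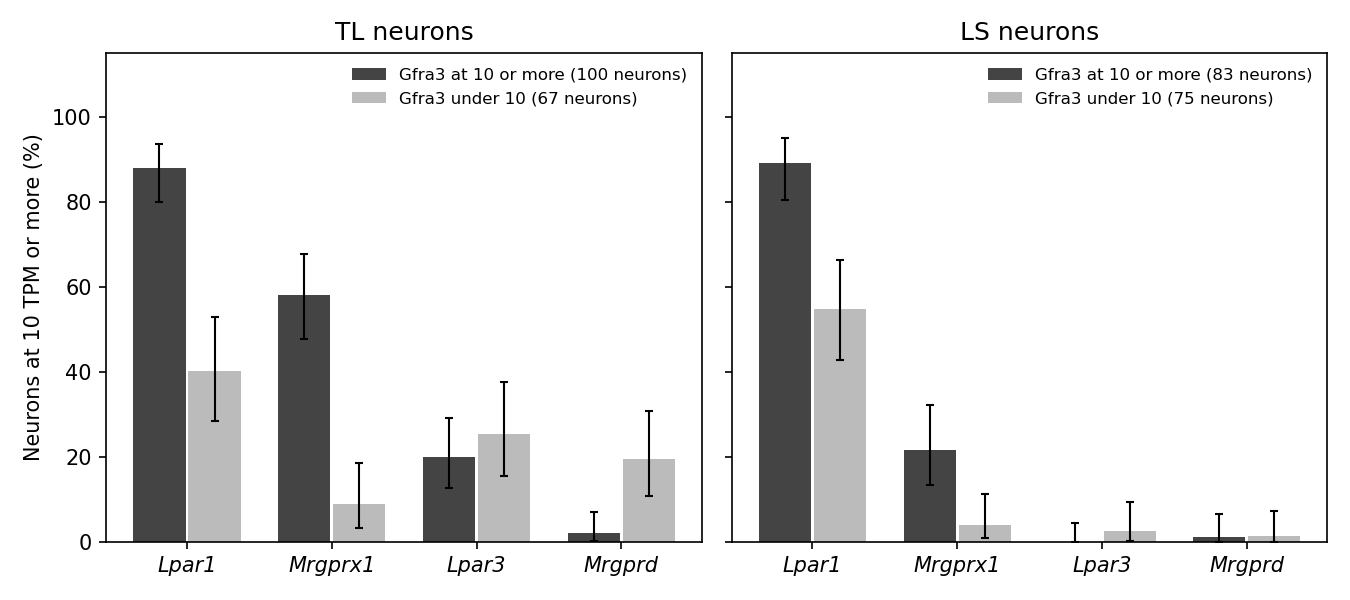
Percentage of neurons at 10 TPM or more for Lpar1, Mrgprx1, Lpar3 and Mrgprd among neurons with (dark) and without (light) Gfra3, for TL on the left and LS on the right, with exact 95% intervals for counting error. Lpar1 and Mrgprx1 are more frequent with Gfra3 in both segments, and Mrgprx1 with Gfra3 reaches 58.0% in TL and 21.7% in LS.

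Trpa1, the irritant-gated channel, was expressed in 170 neurons. All 15 Lpar5 neurons and all 17 Mrgprb5 neurons were among them, as were 76 of the 85 Mrgprx1 neurons. Piezo2, a mechanically gated channel, was expressed in 145 neurons, which included all 15 Lpar5 neurons and 15 of the 17 Mrgprd neurons but 17 of the 85 Mrgprx1 neurons. Asic3, an acid-sensing channel, was expressed in 81 neurons, of which 1 expressed Mrgprd and 0 expressed Lpar5. The gene for the peptide CGRP, Calca, was detected in all 15 neurons with Mrgprd at 100 TPM or more, at a median of 1355 TPM against 17839 TPM in neurons not expressing Mrgprd, and Nefh, a marker of myelinated neurons, at 50.8 against 59.6 TPM.

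Genes most like each member across the 325 neurons were ranked by Pearson's r of log2(TPM + 1), as a description over neurons that share libraries and differ in depth. Mrgprd was most like Agtr1a, an angiotensin receptor (r = 0.97), Ms4a3 (r = 0.94) and Hal, histidine ammonia-lyase (r = 0.94). Agtr1a was expressed in 15 neurons, all of which expressed Mrgprd. Among members, r with Mrgprd was 0.91 for Lpar5, 0.79 for Lpar3 and 0.74 for Mrgprb5, and these values rest on about 15 neurons (Spearman's rho 0.48, 0.47 and 0.31). Of all genes, 96 of 13439 (0.714%) reached r of 0.5 with Mrgprd, as did 3 of the 6 other members tested. The share was 0.387% for Lpar3, 0.632% for Lpar5 and 0.461% for Mrgprb5, each also with 3 of 6 members. For Lpar3 this was 52 genes, or 31 without plate 5. Lpar3 and Lpar5 were both nearest to Agtr1a and the protease gene Klk5, with Hal for Lpar3 (r = 0.76) and Serpina11 for Lpar5 (r = 0.90), and Mrgprb5 to Klk5, Agtr1a and Bcl2l14 (r = 0.78 for each).

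The receptors outside that set resembled other genes. Mrgprx1 was nearest to Cyp4b1 (r = 0.61), Trpa1 (r = 0.61) and Mrgpra2b (r = 0.59), with 0.193% of genes (26) at r of 0.5, a number that ran from 12 without plate 6 to 54 without plate 4. Lpar1 was nearest to Mboat2, a lysophospholipid acyltransferase (r = 0.77), Plpp3, a phosphatase that breaks down LPA (r = 0.75), and Ptprz1 (r = 0.67), with 0.848% of genes (114) at r of 0.5, or 70 without plate 5. Of the 211 neurons expressing Plpp3, 192 also expressed Lpar1, against 230 of all 325 neurons. Within TL and LS, r with Lpar1 was 0.85 and 0.68 for Mboat2, 0.78 and 0.71 for Plpp3, and 0.85 and 0.42 for Ptprz1. Mrgpre was nearest to the neuronal glucose transporter gene Slc2a3 (r = 0.74), Apc2 (r = 0.73) and Ank2 (r = 0.72), and 9.58% of genes reached r of 0.5 with it. Without plate 5, none of these 3 genes was among its nearest 3. None of these 3 members reached r of 0.5 with another member.

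Glial transcripts moved with some members. Mrgprd, Lpar5 and Mrgpra3 were expressed in 0 of the 81 neurons with the lowest glial sums, which were 23 TL and 58 LS neurons. Lpar3 was expressed in 4 of these 81 (4.94%), in 4 of 23 TL and 0 of 58 LS neurons, and in 13 of the 82 with the highest (15.9%). Over the 325 neurons, Spearman's rho with the glial sum was 0.07 for Mrgprd, -0.02 for Lpar5, -0.06 for Mrgpra3 and 0.08 for Lpar3. Mrgprx1 was expressed in 22 of these 81 (27.2%), in 15 of 23 TL and 7 of 58 LS neurons, and in 11 of the 82 with the highest (13.4%). Mrgpre was expressed in 74 (91.4%) and 59 (72.0%), with a Spearman's rho of -0.31 between Mrgpre and the glial sum over the 325 neurons. The part of glial RNA in these values was not tested. All 13 neurons with Lpar1 at 200 TPM or more had a glial sum of at least 26885 TPM (median 50369), and a median of 8612 genes detected. Lpar1 was also expressed in 63 of the 81 neurons with the lowest glial sums, at most 1479 TPM (77.8%). These were 16 of 23 TL and 47 of 58 LS neurons. Among the 82 neurons with the highest glial sums, 77 expressed Lpar1 (93.9%). Between these, Lpar1 was expressed in 38 of 81 neurons with sums of 1479 to 2995 TPM (46.9%). It was expressed in 52 of 81 neurons with sums of 3006 to 5366 TPM (64.2%). Spearman's rho between Lpar1 and the glial sum was 0.28 over the 325 neurons. In the 217 neurons with Lpar1 from 10 to 200 TPM the glial sum ran from 84.7 to 61956 TPM (median 3536). The limit of 200 TPM was not set in advance, and the part of glial RNA in the Lpar1 values was not tested. All 15 genes of the glial list were expressed in at least 10 neurons, with Glul, Pmp22, S100b and Apoe in the most, and sensory neurons also express some of them.

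The highest Lpar6 value, 221 TPM, was in a TL neuron of plate 3 with a summed endothelial level of 25537 TPM, most of it Cldn5 at 19217 TPM, and a neuronal sum of 2408 TPM. In the other Lpar6 neurons the endothelial sum was between 0 and 46.6 TPM, and glial sums were 101622, 26038 and 1940 TPM. Their part in the Lpar6 values was not tested. Of the endothelial list, 1 of 10 genes (Vwf) was below 10 TPM in every neuron. The same held for 3 of 10 macrophage genes (C1qa, C1qc and Ptprc) and 1 of 10 fibroblast and pericyte genes. It also held for 4 of 6 mast cell genes (Mcpt4, Tpsb2, Cma1 and Mrgprb2). The other genes of these lists reached 10 TPM in 1 or more neurons. The macrophage sum ran up to 161 TPM in TL and 299 TPM in LS neurons, and the fibroblast and pericyte sum up to 1822 and 1878 TPM. The genes of these lists found in the most neurons were Kit (247 neurons), Egfl7 (291), C1qb (196) and Dcn (141). Dhh of the glial list, Esam of the endothelial list and Lum of the fibroblast list met the rule for TL, and no gene of these lists met it for LS.

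Further Mas-related receptors followed. Of 15 others measured, 6 were expressed in at least 10 neurons, and 3 met the rule for TL, with a median difference of 11.9 percentage points. Mrgpra2b was expressed in 107 TL and 43 LS neurons (64.1% against 27.2%), Mrgpra2a in 82 and 20, Mrgpra1 in 35 and 8, and Mrgpra9, which did not meet the rule, in 28 and 14. Mrgpra2b was expressed in 73 of the 85 Mrgprx1 neurons, and in 14 of the 15 neurons with Mrgprd at 100 TPM or more. Mrgpra2a and Mrgpra2b are close paralogues, so that reads could have been split or lost between them.

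The LPA pathway beyond the members was uneven. Of 5 other LPA receptors and candidates, Gpr35 alone was expressed in at least 10 neurons, in 122 TL (73.1%) and 91 LS (57.6%) neurons, and Lpar4 in 1. Of 20 genes of LPA synthesis and breakdown, 15 were tested, 1 met the rule for TL and 4 for LS, with a median difference of -5.77 percentage points. The phosphatase gene Plpp1 was expressed in 313 neurons, the acyltransferase gene Agpat1 in 309, Plppr2 in 307 and Plpp2 in 292. The genes that met the rule, named after their values were seen, were Ddhd1 for TL, and Enpp2, which encodes autotaxin (15.0% of TL against 38.6% of LS neurons), Plppr3 (8.98% against 42.4%), Plppr5 (1.80% against 11.4%) and Agpat2 (11.4% against 35.4%) for LS.

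Genes of G protein signalling went both ways between the segments. Of 32 G protein and effector genes, 29 were tested, Kcnq3 met the rule for LS (named after its values were seen), and the median difference was -1.16 percentage points. Gnao1 was expressed in all 325 neurons, Gnai2 in 323, Gnaq, which couples receptors to phospholipase C, in 321 and Rgs4 in 320. Among genes that did not meet the rule, singled out after their values were seen, Arrb1 was expressed in 87.4% of TL and 58.2% of LS neurons, Rgs10 in 97.0% and 71.5%, Trpa1 in 65.9% and 38.0%, Gna14 in 25.1% and 7.59% and Plcb1 in 32.9% and 17.1%. Between neurons with Mrgprd at 100 TPM or more and those not expressing it, the median level was 175 against 56.7 TPM for Gnaq, 394 against 124 TPM for Gnao1, 101 in both for Gnai2 and 2884 against 545 TPM for Rgs4. Gna14, singled out after its values were seen, was expressed in 15 of 15 and in 38 of 308, with medians of 243 and 0 TPM.

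Of 23 non-peptidergic and itch neuron genes, 20 were tested. Those that met the rule for TL included Gfra2, Plxnc1, Hrh1 and Htr4, named after their values were seen, and none met it for LS, with a median difference of 4.71 percentage points. The genes expressed in the most neurons were Scn11a, Ret, Cd55 and P2rx3, an ATP-gated channel. Between neurons with Mrgprd at 100 TPM or more and those not expressing it, median levels were 362 against 44.7 TPM for Scn11a, 430 against 122 TPM for Ret, 899 against 39.3 TPM for Cd55 and 528 against 40.7 TPM for P2rx3.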

How the data were processed

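Colon-traced neurons of C57BL/6J mice were sequenced singly on 6 library plates with 75 bp paired-end reads. Per the submitters' processing notes, the authors used bcl2fastq 2.15.0.4, STAR 2.4.1 and featureCounts 1.4.4 on GRCm38.p3 and filtered cells. According to the paper, further cells were left out for satellite glia before its clustering. That step was not repeated here, and all 325 neurons with a column were kept. The deposited log2 values, normalised by the authors, hold 1 column for each neuron. Here each value was taken as log2(x + 1) and x was rescaled to 1000000 per neuron, which gives TPM. Reads were recovered by treating x as whole reads divided by gene length, and 65.1% of values above 0 came out whole with GENCODE M21 lengths within a relative tolerance of 2e-06, against 0.119% with lengths changed at random. Lengths of the remaining genes were found from the values.

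Neurons are not replicates, so no p-value was computed. A gene was called for a segment when its share of neurons at 10 TPM or more was at least 2 times the other share (0 set to 3 neurons) and larger in each of plates 2 to 6, and genes expressed in at least 10 neurons were tested. Plate 1 held 5 TL neurons only. Shares have exact 95% intervals (Clopper-Pearson). The genes named are the members, the 4 genes of each list expressed in the most neurons and the 3 genes nearest to each member, unless stated. Results for some list genes are not reported here. Members and gene lists were chosen with earlier results of these data known. The scripts were tested on simulated data. Python 3.11.15, numpy 2.4.6 and scipy 1.17.1 were used. Doublets were not called. Cells were picked 1 by 1, but some had high glial or endothelial sums, and these were kept.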

Additional observations from a re-analysis of the deposited data

How the results depend on the processing

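No paired analysis was possible because the labels' numbers do not pair single neurons across segments and no test was run, and the segments were compared within plates 2 to 6 instead. The shares of Mrgprd, Mrgprx1 and Lpar3 were larger in TL than in LS in every setting run, and the share of Lpar1 changed sign, from -12.7 percentage points without the 81 neurons highest in glial genes to 2.54 on the deposited scale without rescaling. At a limit of 1 TPM the TL minus LS difference moved to 34.1 percentage points for Mrgprx1, 1.92 for Lpar5 and -4.75 for Lpar6, Mrgprd was expressed in 50.0% of Lpar5 neurons, Mrgprx1 in 43.5% of Mrgprd neurons and Lpar1 in 92.5% of Mrgprx1 neurons, and 885 of all genes were called for LS. At 12 TPM, chosen after seeing the data, Lpar3 was expressed in 100% of Mrgprd neurons and 2 members (Mrgprx1 and Lpar3) were called, as they were without the 81 neurons highest in glial genes. At 50 TPM the difference was 9.51 for Mrgprx1 and 7.12 for Lpar3, and 1 member (Mrgprx1), 207 genes for TL and 230 for LS were called. At that limit Mrgprd was expressed in 100% of Lpar5 neurons, Mrgprx1 in 0% of Mrgprd neurons and Lpar1 in 25.0% of Mrgprx1 neurons. Mrgprd was expressed in 87.5% of Lpar3 neurons at 50 TPM, against 41.0% at 10 TPM. Without rescaling 162 genes were called for LS. With no condition on plates, 5 members were called for TL, as were 948 of all genes, and 970 for LS. Lpar3 was expressed in 100% of Mrgprd neurons when cells beyond 3 median absolute deviations, or the 81 highest in glial genes, were left out. Leaving out each plate in turn gave 3 to 5 members called for TL, Lpar3 in 91.7% to 100% and Mrgprx1 in 0% to 9.09% of Mrgprd neurons, and Mrgprd in 90.0% to 100% of Lpar5 neurons. Leaving out a plate kept between 0 and 3 of the nearest 3 genes of Mrgpre, between 1 and 3 for Mrgprd, Mrgprb5 and Lpar5, and 2 or 3 for the other members. Numbers of genes at r of 0.5 also changed with Spearman's rho, where 9 genes were left for Mrgprd and 0 for Lpar3 and Mrgprb5. In LS neurons alone, r with Mrgprd rests on 2 expressing neurons. Thinning to 500000 reads left out 3 LS neurons and moved no share of a member beyond its interval. The cause of each change was not tested.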
